A study of Sorghum bicolor with 9 samples.

Results

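Long non-coding RNAs (lncRNAs) are long transcripts in which no coding sequence is recognised, and their AS class in sorghum leaf holds those whose deposited name is a gene identifier followed by "-AS" and a number. By that rule 2028 of the 11928 lncRNA transcripts were AS transcripts, and they belonged to 1811 of the 34366 genes of the mRNA table. Each AS transcript was compared with the remainder of its gene, which is the count of the gene after the counts of its lncRNA transcripts were taken away. Leaves of Sorghum bicolor, a C4 cereal, were sampled at 3 levels of water supply, with 3 libraries at each: a normally watered control, a mild drought and a severe drought. Total RNA was extracted and made into strand-specific libraries. Apart from the water supply, the labels give the groups no difference in genotype, tissue or agent, and name neither cultivar, age nor duration of drought. Nor do they state that replicate libraries were made from different plants, so p-values measure only the spread between these libraries, which may be technical.

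In lncRNA nomenclature the suffix AS usually marks a transcript read from the strand opposite to a gene. Such natural antisense transcripts are common in plants, and well-studied ones lie at regulators of flowering and seed dormancy in Arabidopsis. They can pair with the mRNA, interfere with its transcription, guide chromatin changes or feed small RNA pathways, and many have no known role. The deposited tables hold no strand, so the orientation of these transcripts was not checked here. How the counting used strand was not given in the sources used here, and reads of a gene and of its AS transcript may therefore not be told apart fully.

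Every AS transcript lay wholly inside the deposited span of its gene, and 2019 of the 2028 were on numbered chromosomes. Between 4.85% of the genes of chromosome 1 and 6.21% of those of chromosome 9 had an AS transcript, against 5.27% of all genes. A total of 601 AS transcripts began or ended at the same base as the span of their gene, and 128 did both. Most genes (1668) had 1 AS transcript, 103 had 2 and 40 had 3 or more. SORBI_3002G174000, which encodes ABC transporter G family member 53 of a family of membrane pumps, had 12. Of the 1811 genes, 1143 carried a named protein and 499 neither a named protein nor a Pfam domain. In 168 genes there was also a lncRNA transcript of another class.

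The median AS span was 582 bases (quartiles 325 and 1810), which covered a median of 20.4% of the gene span. Genes with an AS transcript were longer than genes at large, with median spans of 3957 and 2917 bases. The ratio of count to deposited FPKM (fragments per kilobase of transcript, scaled to the library) gives the transcript length that the authors' program used. For 1824 AS transcripts with at least 20 counts in all, this length had a median of 490 bases. It was at least 90% of the span in 1037 of them and under 50% in 479, so that the latter skip most of the region they cover. The 43 AS transcripts that spanned more than 30000 bases had a median implied length of 862 bases, and none of the 42 that could be assessed exceeded 4789.

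The gene table held 27854146 to 41228478 counts per library, and AS transcripts received 135215 to 220400 of them. Levels are given as CPM, counts scaled to the effective library size of the mRNA genes. Between libraries of a group, the biological coefficient of variation was 0.863 for lncRNA transcripts and 0.508 for genes, so the precision of most AS values was set by the spread between libraries. Across AS transcripts, the correlation of log2 levels between libraries of 1 group (0.7 to 0.826, median 0.765) covered nearly the same range as that between groups (0.705 to 0.814, median 0.754). Defining markers of leaf photosynthetic cells (light-harvesting proteins, the Rubisco small subunit and C4 enzymes) were detected for 37 of 39 genes, at a summed 52767 to 128257 CPM. The seed marker list summed to at most 11.9 CPM, those of dividing cells, root and guard cells to 113 to 257 CPM, and that of pollen, with 11 of 97 genes detected, to 29.7 to 312 CPM with overlap between the groups. Their part in the results was not tested. In leaf tissue as a whole, fewer cells of a type and less RNA per cell cannot be told apart.

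AS transcripts were mostly scarce. Their median level was 0.31 CPM, against 2.41 CPM in the OT class, 0.262 in IT and 0.114 in LINC, classes named as in the deposited table, which does not define them. Scaled by length, as deposited FPKM, the medians were 0.518 for AS, 1.29 for OT, 0.525 for IT and 0.246 for LINC. A mean of at least 1 CPM was reached by 478 AS transcripts, 10 CPM by 40 and 100 CPM by 8. Those 8 held 54.7% of the summed AS level, and 5 of them were also among the 8 highest by FPKM.

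The highest AS transcript was SORBI_3003G352000-AS1 (chromosome 3, 67098830 to 67099105), with 23.5% of the summed level. It spans 276 bases of the gene for ESMERALDA 1, an O-fucosyltransferase-like protein linked to cell adhesion in Arabidopsis. Its control libraries had 724, 968 and 713 CPM. In mild drought it had 1466, 381 and 1024 CPM, and in severe drought 3793, 1398 and 1405. All severe drought libraries lay above all controls, with severe drought 1 far above the rest, and the mild drought libraries lay on either side of the controls. Under severe drought the fitted difference from the control was 1.46 ± 0.58 (log2 ± SE), with an adjusted p of 0.997 in the quasi-likelihood test of edgeR. The remainder of the gene had 1594, 2171 and 3220 CPM in the control and 4416, 5097 and 3780 in severe drought, again without overlap.

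A second group among the abundant AS transcripts belonged to genes named after proteins that organelles encode. There were 24 of them on 21 genes, 18 named after plastid and 6 after mitochondrial proteins, and they held 29.4% of the summed AS level. In the deposited table these genes lie on numbered chromosomes or, for SORBI_3K031300, on a scaffold. Organelle genomes have near-identical copies in plant nuclear genomes, and how reads matching both were counted was not given in the sources used here, so these counts are uncertain, and whether the reads came from the organelle genome was not tested. They were singled out after their values were seen. The highest, SORBI_3003G173116-AS1 (chromosome 3, 38371223 to 38376103), covers the whole span of a gene named after psbZ, a small subunit of photosystem II. It had 398, 937 and 281 CPM in control leaves, 651, 627 and 1001 in mild drought and 493, 1389 and 1074 in severe drought, and the groups overlapped. The AS transcripts of the ccsA, atpB and rps7 names below, and AS3 of the rpoC2 name, also cover their whole genes. There transcript and remainder come from the same interval, and how reads were divided between them was not given in the sources used here.

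Another, SORBI_3002G150200-AS1 in a gene named after ccsA, which attaches haem to plastid cytochromes, had 104, 180 and 79.8 CPM in the control. Its mild drought values were 102, 222 and 294 CPM, and its severe drought values 159, 347 and 283, so that control 2 lay above severe drought 1. Close behind came the AS transcripts of genes named after atpB (mean 132 CPM), a plastid ATP synthase subunit, and rps7 (104 CPM), a plastid ribosomal protein. Of the 21 organelle-named AS transcripts that passed the filter on low counts, 18 had a fitted level above the control in mild drought and 19 in severe drought, with median log2 differences of 0.50 and 1.04. Over all lncRNA transcripts tested, 56.4% and 55.8% were above the control. In severe drought all libraries lay above all controls for 2 of the 24, both among the 21 that passed the filter. They were the AS3 transcript of the rpoC2-named gene and SORBI_3001G231300-AS1 of a psbN-named gene. This share was slightly above the 7.12% of all lncRNA transcripts tested. The summed level of the 24 was 734, 1919 and 645 CPM in control leaves, 1196, 1375 and 1938 in mild drought and 1333, 3405 and 2298 in severe drought. Control 2 lay above severe drought 1 (exact permutation p = 0.2 for severe drought against the control). The remainder of the same genes had 7255, 10800 and 5637 CPM in the control and 9074, 18078 and 10572 in severe drought, and was likewise highest in control 2 and in severe drought 2 within their groups.

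Summed over all members, the AS level was higher in severe drought than in the control. It was 3669, 5932 and 3894 CPM in control leaves, 5289, 3862 and 5438 in mild drought and 7486, 8252 and 6661 in severe drought. On the CPM scale, every severe drought library lay above every other library. Relative to all counts of the gene table, severe drought 3 (135215 of 27854146) lay below control 2 (175656 of 33399928) and mild drought 1 (167967 of 34247661). The difference of the means was 2968 CPM, with p = 0.1 in an exact two-sided permutation test, the smallest p that 3 against 3 libraries allow. It rested on few members. Without the 24 organelle-named transcripts and SORBI_3003G352000-AS1, the sums were 2598 ± 420 CPM in the control, 2402 ± 268 in mild drought and 2922 ± 546 in severe drought (SD, n = 3). These overlapped, with a difference of 325 CPM between severe drought and the control (exact permutation p = 0.5). The members left out were chosen after their values were seen, so a smaller difference could be foreseen and that p-value is a description only. Mild drought differed from the control by 365 CPM over all members (exact permutation p = 0.9).

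**Figure D1:**
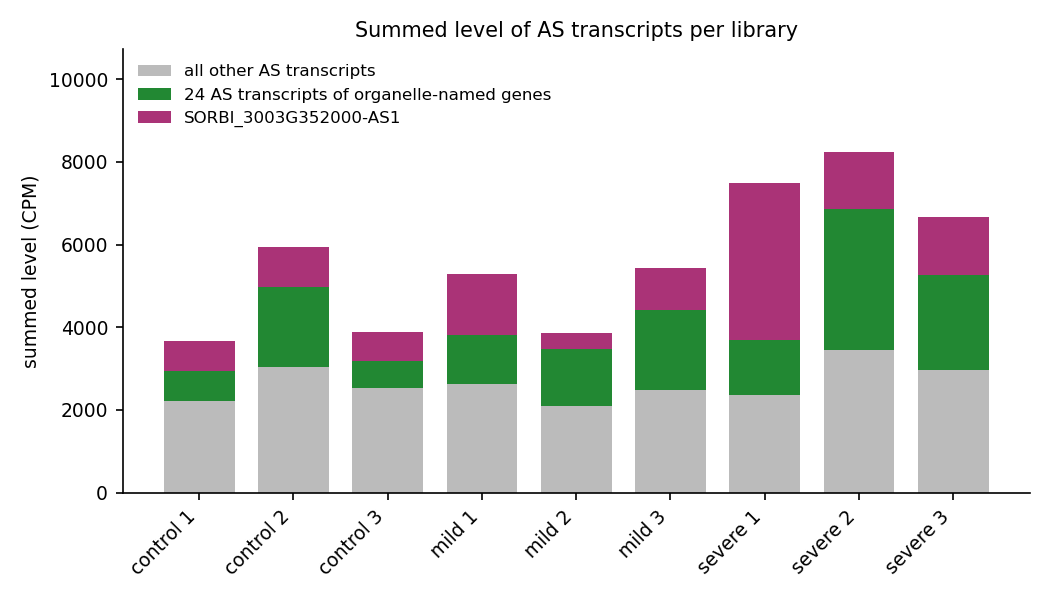
Summed level (CPM) of AS transcripts in each of the 9 libraries, stacked as SORBI_3003G352000-AS1, the 24 transcripts of organelle-named genes and all others. The severe drought bars (6661 to 8252) stand above all others, while the grey part alone, 2106 to 3449 CPM, overlaps between the groups.

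The share of AS transcripts in the counts of AS transcripts plus the remainder of their genes gave the same picture. It was 7.85, 10.7 and 8.17% in the control, 10.3, 7.95 and 9.12% in mild drought and 12.8, 11.8 and 11.6% in severe drought. The 95% Wilson interval of each was at most 0.061 percentage points to either side, which covers counting error only. Severe drought lay above the control without overlap, by 3.15 points on average (exact permutation p = 0.1). Without the organelle names and the highest transcript, left out after their values were seen, it differed by 0.358 points (exact permutation p = 0.8). Within the lncRNA counts, AS transcripts held 6.79, 13.0 and 5.14% in the control, 8.73, 12 and 11.2% in mild drought and 10.4, 14.1 and 6.94% in severe drought. Here the groups overlapped in both comparisons with the control (exact permutation p = 0.4 and 0.5). This share depended much on the highest lncRNA transcript, which is not of the AS class. Without it the AS share was 13.5, 17.5 and 12.4% in the control, 14.3, 15.0 and 15.6% in mild drought and 15.9, 19.8 and 15.1% in severe drought.

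Fewer AS transcripts were found in the severe drought libraries on average, but the number depended mostly on single libraries. With every library thinned to 27854146 counts of the gene table, 1314, 1760 and 1370 AS transcripts had at least 1 count in the control. The totals were equal in this way, while the share of mRNA genes in them was not. The numbers were 1383, 1647 and 1488 in mild drought and 1264, 1400 and 1360 in severe drought. Control 2 and mild drought 2 stood above all others, and the same 2 libraries also had the most LINC transcripts and the most genes. The difference between severe drought and the control was -140 transcripts (exact permutation p = 0.5), and without control 2 it shrank to -0.667. Over all libraries 759 AS transcripts had a count in each of the 9, and 113 in 1 library only.

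**Figure D2:**
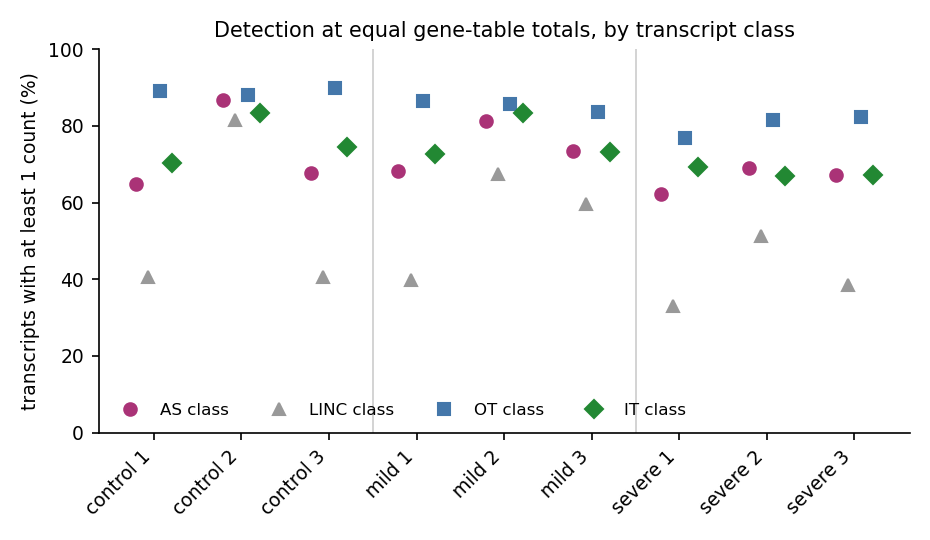
Share of the transcripts of each class with at least 1 count after thinning to equal totals of the gene table, for each of the 9 libraries. AS transcripts range from 62.3% in severe drought 1 to 86.8% in control 2, and LINC transcripts from 33.0% to 81.6%.

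In most genes the AS transcript was a minor part of the counts. Among 1032 AS transcripts whose gene kept at least 5 CPM after subtraction, the AS share of the pair had a median of 2.27% (quartiles 1.13 and 4.63%). It was under 1% in 222, above 10% in 95 and above 50% in 9. Over all 2028, however, 407 AS transcripts had at least as many counts as the remainder of their gene, and 25 genes had no read left at all. Where lncRNA reads were a large part of a gene, the deposited gene FPKM followed the full row: over 223 genes the log2 ratio of FPKM to count had a median SD between libraries of 0.0829 with these reads and 0.382 without. In such genes a gene level taken from that table therefore includes the lncRNA reads. The genes were chosen by lncRNA reads of any class, so the check was not made for AS transcripts alone.

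Among genes that kept at least 5 CPM after subtraction, the highest share, 81.4%, was that of SORBI_3003G205100-AS1 (chromosome 3, 53480280 to 53538817), in the gene for a homolog of RTEL1, a helicase that unwinds telomeric DNA. The transcript had 21.7, 29.6 and 16.0 CPM in control leaves, 22.6, 18.8 and 31.7 in mild drought and 22.6, 37.0 and 32.9 in severe drought. The remainder of the gene stayed between 4.56 and 7.66 CPM in all 9 libraries, and neither partner was separated by group. Next came SORBI_3002G420800-AS1 (75.8%) in a gene for a ricin B-like lectin, SORBI_3005G096201-AS1 (73.6%) in a gene for the immune receptor Pik-2, SORBI_3002G403700-AS1 (65.7%) in a gene for subunit 1 of condensin, which compacts chromosomes, and SORBI_3002G222000-AS1 (65.2%). In the condensin pair the AS transcript was lowest in control 1 (10.6 CPM) and highest in severe drought 2 (42.7), and the remainder of the gene ranged from 4.13 to 22.7 CPM. No difference of these 5 transcripts between groups passed an adjusted p of 0.05 in edgeR.

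Few AS transcripts separated mild drought from the control. No AS transcript passed an adjusted p of 0.05 in edgeR, among the 1105 that passed the filter on low counts, and 0.0% of all 4903 lncRNA transcripts tested did. At an unadjusted p under 0.05 there were 30 AS transcripts, or 2.71%, against 3.2% of all lncRNA transcripts, and DESeq2 called 2 (0.181%, against 0.245% of all). The groups did not overlap for 80 AS transcripts that were higher in mild drought and 28 that were lower, or 7.24% and 2.53%, against 6.73% and 4.51% of all. A fitted level above the control was found for 667 (60.4%, against 56.4% of all). The median log2 difference was 0.22, beside 0.12 over all lncRNA transcripts, but 0.07 without control 1 and 0.67 without control 2. With library sizes taken from the lncRNA table it was 0.12, where the median over all lncRNA transcripts was 0.00, and 56.3% were higher (50% of all).

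The smallest p-values in mild drought belonged to AS transcripts of 6 genes. SORBI_3008G069700-AS3 (chromosome 8, 8436514 to 8437963) lies in the gene for a putative clathrin assembly protein, which helps to form coated vesicles. It had 0, 0.0675 and 0.0261 CPM in the control (3 counts in all) and 3.21, 0.0693 and 3.28 CPM in mild drought, where mild drought 2 stayed close to the controls. In severe drought all libraries were high, at 2.21, 2.14 and 2.76 CPM. The fitted difference in mild drought was 6.02 ± 1.45 on the log2 scale, with an adjusted p of 1.0 in edgeR and 0.00868 in DESeq2. The remainder of the gene had 24.1, 24.6 and 31.2 CPM in the control and 37.2, 37.2 and 29.4 under mild drought.

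SORBI_3005G195200-AS1 (chromosome 5, 67924763 to 67939004), in a gene without a named protein, had 0.106, 0.0675 and 0.13 CPM in the control. It had 1.2, 1.39 and 0.36 CPM in mild drought and 0.374, 1.72 and 2.07 in severe drought, with every drought library above every control. The mild drought difference was 3.22 ± 0.86 on the log2 scale (adjusted p of 1.0 in edgeR). In the HLS1 homolog, whose Arabidopsis counterpart is needed for the hook of the seedling, SORBI_3002G011400-AS1 had 0.476, 1.11 and 0.809 CPM in the control and 2.93, 1.78 and 3.96 under mild drought. Its severe drought values were 2.07, 2.51 and 2.71 CPM, again all above the controls. The remainder of the HLS1 gene went the same way, from 7.36, 8.78 and 12.7 CPM in the control to 23.5, 13.8 and 24.9 in mild drought and 30.0, 27.2 and 19.3 in severe drought. The mild drought differences were 1.85 ± 0.55 for the transcript and 1.11 ± 0.31 for the gene (log2), with adjusted p-values of 1.0 and 0.612 in edgeR.

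Of the other 3, SORBI_3010G141966-AS1 had no count in the control and 31 in mild drought, which is at least 10.9-fold higher by a floor of 3 counts over the group. SORBI_3001G452800-AS1 was lower, with 68.4, 36.0 and 140 CPM in the control and 26.2, 17.7 and 29.2 under mild drought, without overlap. It held 97.8% of the counts of its pair, and in severe drought (58.2, 34.6 and 103 CPM) it overlapped with the control. SORBI_3001G372200-AS1 had 0.424, 0.709 and 0.705 CPM in control leaves, 0, 0.0693 and 0 in mild drought and 0.17, 0.466 and 1.18 in severe drought. Mild drought thus lay below both other groups for this transcript, in a gene whose remainder had 84.1 to 494 CPM. The 2 AS transcripts of SORBI_3001G372200 together had 1.93, 2.53 and 1.85 CPM in control leaves, 0.85, 1.45 and 1.24 in mild and 1.19, 1.54 and 2.07 in severe drought, where mild and severe drought overlapped.

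Severe drought gave a like picture with partly other transcripts. In edgeR 0 of the 1105 AS transcripts passed, against 0.0204% of all, and the lowest adjusted p was 0.626. At an unadjusted p under 0.05 there were 50 AS transcripts (4.52%, against 4.75% of all), and DESeq2 called 7 (0.633%, against 0.857% of all). The groups did not overlap for 71 AS transcripts that were higher and 34 that were lower, or 6.43% and 3.08%, against 7.12% and 5.69% of all. A fitted level above the control was found for 679 (61.4%, against 55.8% of all). The median log2 difference was 0.26, beside 0.12 over all lncRNA transcripts, but 0.05 without severe drought 3 and 0.73 without control 2. With library sizes of the lncRNA table it was 0.10, beside -0.08 over all, and 53.8% were higher (46.9% of all). With no filter on low counts it was 0.07, beside -0.23.

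Among the smallest p-values were again SORBI_3008G069700-AS3 (6.14 ± 1.45 on the log2 scale) and SORBI_3005G195200-AS1 (3.71 ± 0.88), both with an adjusted p of 0.626 in edgeR and called by DESeq2 (0.00286 and 0.0112). The 3 AS transcripts of SORBI_3008G069700 together differed by a far smaller fold than AS3 alone, though by a similar amount of CPM. Together they had 0.662, 0.946 and 0.235 CPM in control leaves and 2.79, 2.84 and 2.76 in severe drought, without overlap. SORBI_3001G147400-AS1 (chromosome 1, 11837099 to 11837719) covers the whole span of the gene for ferredoxin C 1, an iron-sulphur electron carrier of the chloroplast. It had 1.83, 1.89 and 2.09 CPM in control leaves, 3.21, 3.32 and 3.48 in mild drought and 4.01, 11.4 and 7.39 in severe drought. The 3 groups did not overlap and were ordered by water supply. The severe drought difference was 1.97 ± 0.49 on the log2 scale (adjusted p of 0.626 in edgeR and 0.0113 in DESeq2). The remainder of the ferredoxin gene had 11.3, 9.9 and 15.1 CPM in the control and 22.2, 33.8 and 15.4 in severe drought, also without overlap, and the ratio of transcript to gene differed by 0.91 ± 0.47 (adjusted p of 0.844 in limma).

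SORBI_3010G141966-AS1 had 0.102, 0.512 and 0.788 CPM in severe drought against no count in the control, at least 14.8-fold higher, while the remainder of its gene stayed between 2.89 and 4.57 CPM in all libraries. SORBI_3006G091100-AS1 had 0, 0.0675 and 0 CPM in control leaves, 0.157, 0.323 and 0.6 in mild drought and 0.985, 0.885 and 0.197 in severe drought. Every drought library had more than every control, on 2 counts in the control, 34 in mild and 52 in severe drought. The remainder of its gene had 8.26 to 14.8 CPM with overlapping groups. SORBI_3009G165100-AS5, the sixth, had no count in severe drought and is described with the other AS transcripts of its gene.

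**Figure D3:**
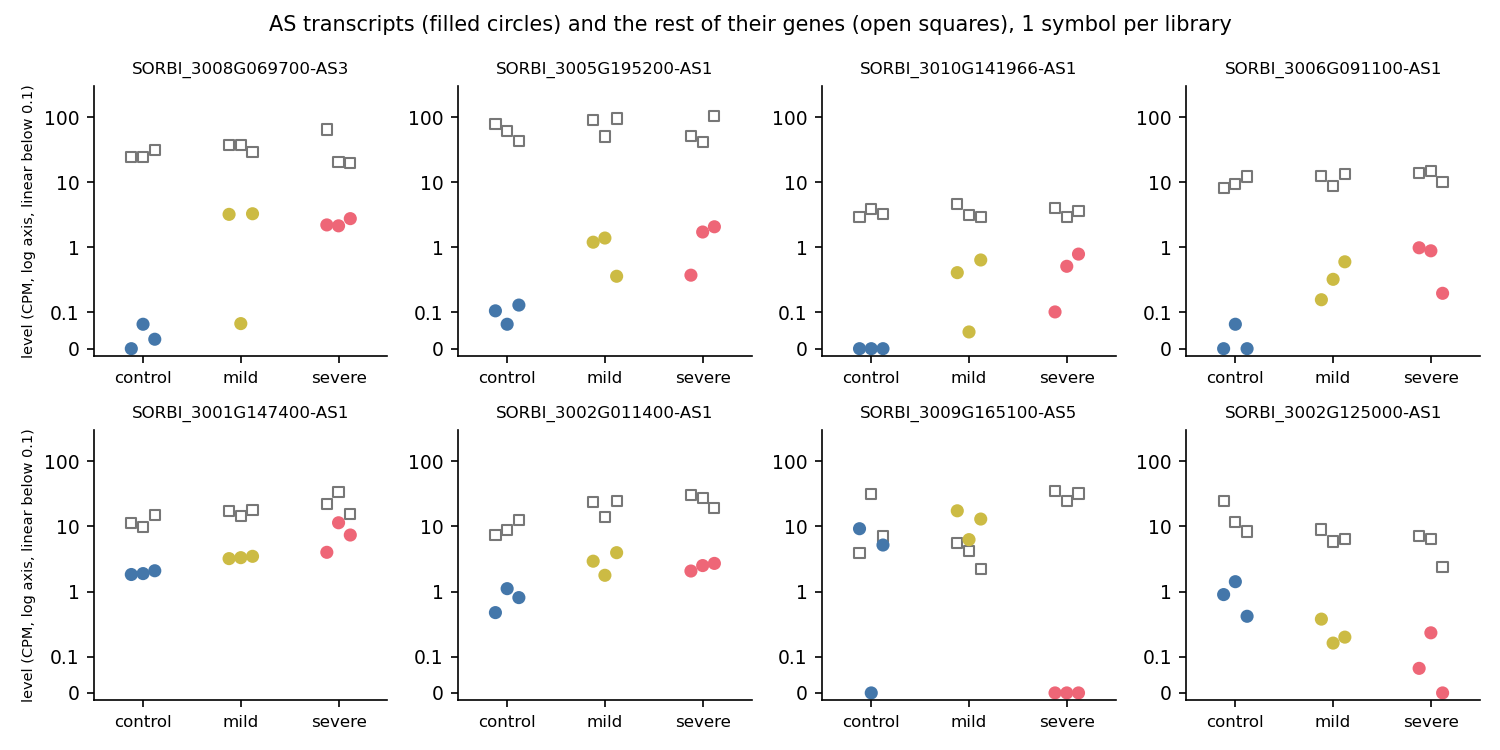
Levels (CPM, log axis, linear below 0.1) of 8 AS transcripts (filled circles, coloured by group) and of the remainder of their genes (open squares) in the 9 libraries. In the upper panels AS transcripts at or below 0.13 CPM in the control reach 0.102 to 2.76 CPM in severe drought while their genes overlap between the groups, and in the lower right the AS transcript of aquaporin PIP2-6 is lower together with its gene.

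Severe and mild drought were finally compared with each other, and here the AS transcripts as a class had a median log2 difference of 0.06, beside -0.01 over all lncRNA transcripts. Its sign depended on the libraries and the scaling: it was -0.20 without severe drought 3 (-0.18 over all) and -0.01 with library sizes of the lncRNA table (-0.07 over all). No AS transcript passed in edgeR (0.0816% of all did), 37 had an unadjusted p under 0.05 (3.35%, against 3.63% of all), and DESeq2 called 3 (0.271%, against 0.51% of all). The groups did not overlap for 43 AS transcripts that were higher in severe drought and 52 that were lower, or 3.89% and 4.71%, against 4.28% and 5.0% of all. Higher in severe drought were 592 (53.6%, against 49.5% of all). SORBI_3010G229450-AS1 had 1.04, 0.462 and 0.999 CPM in mild and 3.77, 4.24 and 7.93 in severe drought, without overlap, at 2.67 ± 0.72 on the log2 scale (adjusted p of 0.998 in edgeR). SORBI_3005G076600-AS1 had its highest values in mild drought (1.01, 1.04 and 0.92 CPM), above the control (0.371, 0.371 and 0.235) and severe drought (0.306, 0.279 and 0.246). Without overlap with either group, SORBI_3001G225400-AS1 was lowest in mild drought, with 0, 0.0923 and 0 CPM, against 0.238 to 0.391 in the control and 0.296 to 0.747 in severe drought. On a scaffold, SORBI_3K044411-AS2 had 125 counts in mild drought and none in severe drought, at least 29.7-fold lower, with 1 control library (control 3) also at 0. The 3 AS transcripts of SORBI_3K044411 together had 15.3, 8.91 and 12.1 CPM in mild and 0.408, 9.96 and 4.09 in severe drought, which overlapped.

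No gene with an AS transcript passed in edgeR, and DESeq2 called few of them in any comparison. After subtraction 1409 of the 1811 passed the filter on low counts, and 0 passed edgeR in any comparison, as did 0.0% of the 21908 genes tested. At an unadjusted p under 0.05 there were 79 in mild drought (5.61%, against 6.37% of all), 124 in severe drought (8.8%, against 8.65%) and 55 between the drought levels (3.9%, against 3.56%). DESeq2 called 10, 16 and 7 of them (0.71%, 1.14% and 0.497%), beside 0.94%, 1.54% and 0.137% of all genes. In mild drought the groups did not overlap for 80 that were higher and 94 that were lower (5.68% and 6.67%, against 5.96% and 6.46% of all). In severe drought these were 105 and 120 (7.45% and 8.52%, against 7.59% and 9.74%), and between the drought levels 44 and 70 (3.12% and 4.97%, against 2.98% and 4.62%). The share with a fitted level above the control was 53.2% in mild and 45.6% in severe drought, against 52.1% and 47.9% of all genes, and 46.8% were higher in severe than in mild drought, against 46.5%. Among the 7 called between the drought levels was SORBI_3009G165100 (adjusted p of 0.0331 in DESeq2). Its remainder was high where its AS5 transcript had no count, as described below. Some of the 27 genes called by DESeq2 are named here, chosen after their values were seen.

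The gene for the abscisic acid receptor PYL4 (SORBI_3001G403300), which senses the main drought hormone, had 29.2, 33.9 and 20.1 CPM in the control. It had 3.9, 3.3 and 8.84 CPM in mild drought and 5.71, 8.29 and 7.19 in severe drought, all below the controls. Its differences were -2.38 ± 0.40 and -1.97 ± 0.40 on the log2 scale, with adjusted p-values of 0.396 and 0.297 in edgeR and 3.2e-05 and 0.00124 in DESeq2. Its AS transcript had counts only in severe drought 3 (0.788 CPM, 16 counts). The gene for heat stress transcription factor C-2a (SORBI_3004G101400), of a family that activates chaperone genes, had 1.77, 1.89 and 1.2 CPM in control leaves, 5.98, 4.62 and 8.76 in mild and 4.35, 8.47 and 15.7 in severe drought. Its severe drought difference was 2.55 ± 0.50 (adjusted p of 0.297 in edgeR and 0.000366 in DESeq2), and its AS transcript did not exceed 0.739 CPM.

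In both of those genes the AS transcript was too scarce to be tested. In SORBI_3002G187900, without a named protein, both partners were higher under drought. The gene had 6.86, 5.37 and 4.23 CPM in control leaves, 69.4, 13.9 and 53.4 in mild and 21.3, 76.2 and 41.7 in severe drought. The AS transcript had 0.185, 0.27 and 0, then 1.17, 0.462 and 1.84, and 0.475, 3.68 and 2.12 CPM, with every drought library above every control for both. The severe drought differences were 3.08 ± 0.64 for the gene (adjusted p of 0.297 in edgeR and 0.000203 in DESeq2) and 3.76 ± 1.24 for the transcript (0.0905 in DESeq2). The pair at the gene for cell number regulator 7 (SORBI_3001G024500), of a family that restrains organ size in maize, was lower in mild drought. There the gene went from 373, 322 and 142 CPM to 106, 66.7 and 60, and its AS transcript from 5.88, 7.29 and 3.03 CPM to 1.89, 1.55 and 1.04.

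AS transcripts and genes leaned the same way somewhat more often than not. Over 959 pairs in which both passed the filter, 61.0% had differences of the same sign in mild drought, 58.3% in severe drought and 59.7% between the drought levels. Pearson's r of the log2 differences across pairs was 0.16, 0.18 and 0.082, and Spearman's rho 0.25, 0.27 and 0.23. The partners share their libraries and may share reads, so these values are a description only. For the IT class, with 350 pairs, r was 0.37, 0.36 and 0.29, and for OT, with 832 pairs, 0.062, 0.12 and -0.021. Whether the classes differ in this was not tested.

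**Figure D4:**
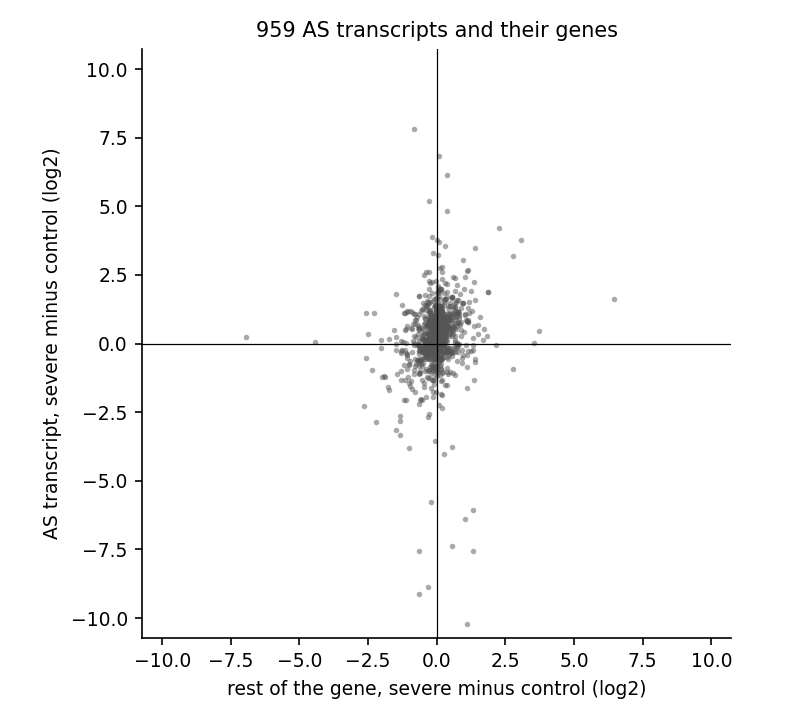
Log2 difference between severe drought and control of 959 AS transcripts (vertical axis) against that of the remainder of their genes (horizontal axis), each point 1 pair. The cloud is taller than wide and tilts slightly, with 347 pairs higher and 212 lower for both partners.

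The ratio of transcript to gene tests directly whether an AS transcript changed differently from its gene. For 0 of the 959 pairs did it pass an adjusted p of 0.05 in limma in any comparison, while among all 2150 pairs of lncRNA transcript and gene 0.0%, 0.14% and 0.14% passed, all of the OT class. At an unadjusted p under 0.05 there were 32, 31 and 27 AS pairs (3.34%, 3.23% and 2.82%, against 4.28%, 5.26% and 4.88% of all). The ratio was higher than in the control for 616 pairs in mild drought and 662 in severe drought (64.2% and 69.0%, against 58.0% and 58.3% of all), and higher in severe than in mild drought for 522 (54.4%, against 51.3%). Its pseudocount of 1 was added to unscaled counts. With 0.5 instead, 63.9% and 67.7% were above the control (57.8% and 57.2% of all). With 4 it was 66.4% and 72.9% (59.4% and 62% of all). The groups did not overlap for 69 pairs that were higher and 15 that were lower in mild drought (7.19% and 1.56%, against 6.6% and 3.67% of all). In severe drought these were 60 and 20 (6.26% and 2.09%, against 6.79% and 4.74%), and between the drought levels 30 and 41 (3.13% and 4.28%, against 4.23% and 4.84%). Its median difference was 0.27 and 0.39 on the log2 scale, beside 0.16 and 0.21 over all pairs. Without control 1 these were 0.09 and 0.17, without control 2 they were 0.59 and 0.71, and with gene counts as deposited they were 0.14 and 0.23 (0.06 and 0.10 over all). Between the drought levels the median was 0.09, beside 0.04 over all pairs, but -0.12 without severe drought 3 and 0.33 without severe drought 1.

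Several of the pairs with the smallest p-values of the ratio had an AS transcript without counts in a whole group. In the gene for a PTI1-like kinase, which relays immune signals, SORBI_3005G118100-AS1 had 0.556, 0.439 and 0.861 CPM in the control, no count in mild drought and counts only in severe drought 2 (1.12 CPM). In mild drought it was at least 21.1-fold lower, and its ratio differed by -5.30 ± 1.25 (adjusted p of 0.989 in limma). In SORBI_3004G118000, named after glutamate receptor 2.7, an ion channel, the AS1 transcript stayed between 1.65 and 4.88 CPM and the remainder of the gene below 0.53 CPM. There the ratio was higher by 3.00 ± 0.86 in mild drought (adjusted p of 0.999 in limma), where the remainder had 0.22, 0 and 0.04 CPM against 0.529, 0.405 and 0.339 in the control. SORBI_3004G217600-AS1, in the gene for a receptor-like kinase, had 3.6, 10 and 4.54 CPM in the control and 2.58, 4.62 and 1.12 under mild drought, while the gene had 47.7, 74.2 and 77.6 and then 53.9, 152 and 70.0 CPM. Its ratio differed by -1.54 ± 0.53 (adjusted p of 0.999 in limma).

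Others had few counts left in severe drought. SORBI_3004G279400-AS1, in the gene for a protein with PH, RCC1 and FYVE domains, had 1.11, 1.42 and 1.36 CPM in control leaves, 0, 1.04 and 0.16 in mild drought and 0, 0.233 and 0 in severe drought. All drought libraries lay below all controls, and the ratio differed by -5.07 ± 1.55 in severe drought (adjusted p of 0.825 in limma). SORBI_3005G016800, without a named protein, has 6 AS transcripts, of which AS6 and AS2 had no count in severe drought while the 6 together had 1.6, 5.21 and 5.37 CPM there and 4.58 to 6.52 CPM elsewhere. AS6 was at least 17.5-fold lower than in the control and AS2 at least 31.1-fold lower than in mild drought. SORBI_3001G263701-AS1 had 0.346, 0.392 and 0.36 CPM in mild drought and 1.46, 0.233 and 1.43 in severe drought, in a gene whose remainder was below all others in severe drought (0.102, 0.0466 and 0.0985 CPM). Its ratio was higher by 2.44 ± 0.71 (adjusted p of 0.85 in limma).

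Several of the transcripts with the largest differences shared their gene with other AS transcripts of overlapping span. Of the 143 genes with 2 or more AS transcripts, 86 had at least 1 overlapping pair, and 302 of the 376 pairs within a gene overlapped. How reads were divided between overlapping transcripts was not given in the sources used here. SORBI_3009G165100 (chromosome 9, 52120009 to 52127580), without a named protein, has 5, which cover almost the same span. Its AS5 transcript had 9.24, 0 and 5.19 CPM in control leaves, 17.4, 6.28 and 13.0 in mild drought and no count in any severe drought library. Against mild drought this is at least 273-fold lower, with an adjusted p of 0.998 in edgeR and 0.000119 in DESeq2, and against the control at least 123-fold lower (0.813 and 0.00234).

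The remainder of that gene went the opposite way, with 3.89, 31.8 and 7.02 CPM in control leaves, 5.61, 4.22 and 2.24 in mild drought and 35.2, 24.3 and 32.1 in severe drought. All 4 libraries without AS5 counts, control 2 among them, had a high remainder. Summed over the 5 transcripts, the AS level was 14.6, 11.9 and 10 CPM in control leaves, 19.4, 8.56 and 16.8 in mild drought and 10.6, 11.1 and 0 in severe drought, so the sums lay between 8.56 and 19.4 in all libraries but severe drought 3. The AS2 transcript of the same gene had 4.65 CPM in severe drought 1 and none in the others of that group, and AS4 had 10.3 CPM in severe drought 2.

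At SORBI_3010G166950 (chromosome 10, 49153660 to 49238758), nearly all counts were those of 3 AS transcripts of identical span, and the remainder never exceeded 0.371 CPM. Here AS1 had 474, 46.3 and 573 CPM in the control against 59.6, 19.2 and 160 in mild and 79.9, 53.9 and 77.2 in severe drought. AS3 had 31.0, 147 and 31.2 CPM in control leaves, 193, 24.5 and 107 in mild and 245, 792 and 61.8 in severe drought. Control 1 and 3 were high for AS1 and low for AS3, while control 2 was the reverse, and neither transcript separated the groups. DESeq2 called the AS2 transcript in mild drought (adjusted p of 7.93e-08), where it had 12.3, 0 and 20.3 CPM in the control and none in mild drought, while edgeR gave no call. SORBI_3007G013700-AS1, called by DESeq2 in severe drought and between the drought levels, had counts in control 1, control 3 and mild drought 1 only.

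At the gene named after rpoC2 (SORBI_3003G169400), a subunit of the plastid RNA polymerase, the AS3 transcript had 31.6, 275 and 75.4 CPM in the control. It had 142, 20.7 and 50.9 CPM in mild drought and 316, 639 and 286 in severe drought, above all other libraries. The remainder had 362, 659 and 410 CPM in control leaves, 769, 964 and 1104 in mild drought and 326, 814 and 714 in severe drought, where it overlapped with both other groups. The AS share of AS plus remainder, summed over its 3 AS transcripts, was 8.27, 34.1 and 16.5% in the control, 19.2, 3.88 and 12% in mild drought and 50, 44.4 and 34.5% in severe drought. Between the drought levels the ratio of AS3 to the gene differed by 3.57 ± 0.84 on the log2 scale (adjusted p of 0.506 in limma).

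**Figure D5:**
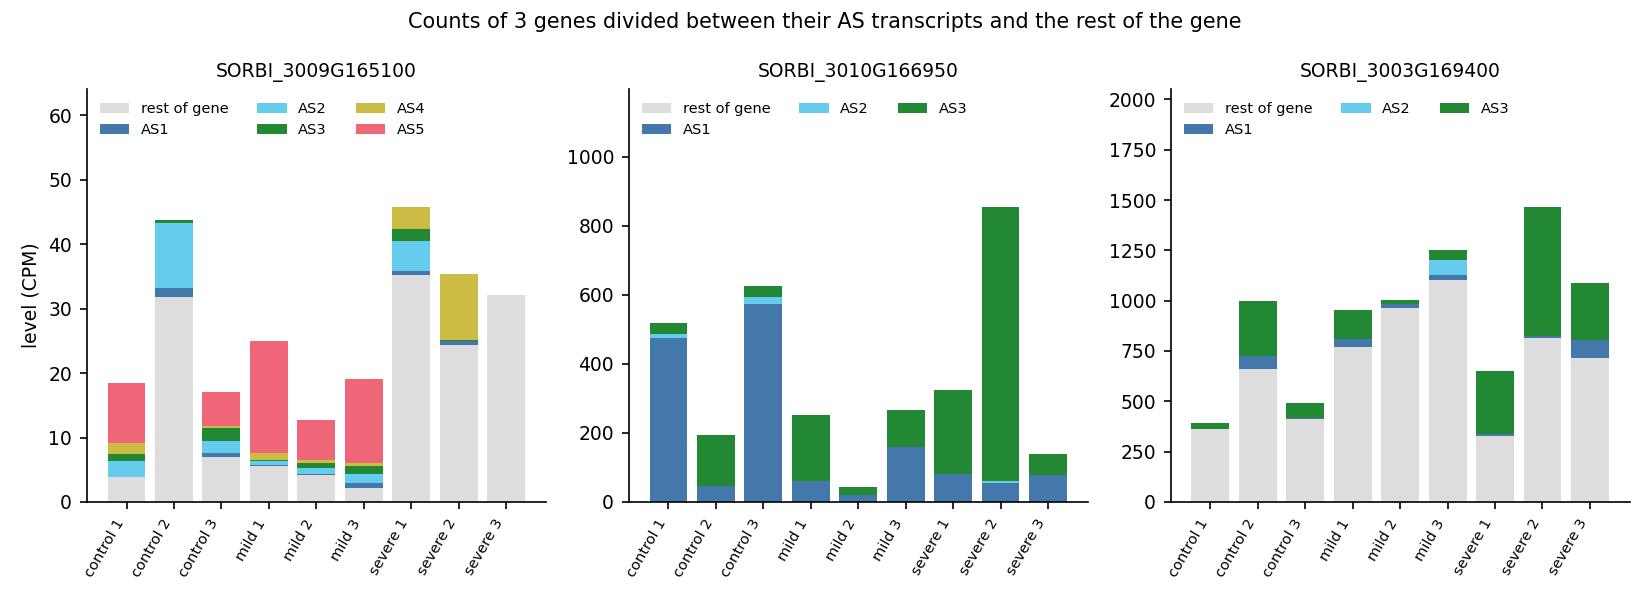
Levels (CPM) of 3 genes in the 9 libraries, divided between their AS transcripts (colours) and the remainder of the gene (grey). In SORBI_3009G165100 the AS5 part is absent from control 2 and all severe drought libraries. In SORBI_3010G166950 AS1 leads in control 1 and 3, and by less in mild drought 3 and severe drought 3. In SORBI_3003G169400 the AS3 part is largest in severe drought.

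Genes of water stress were read from a list of search terms for abscisic acid, late embryogenesis abundant proteins, aquaporins and protective sugars. They made up 18 of the 1811 AS genes (0.994%), a share like that among all genes (0.995%). Their 18 AS transcripts were mostly near the limit of detection: 9 passed the filter and 0 passed in edgeR in any comparison. At an unadjusted p under 0.05 there were 0, 2 and 0 of the 9 in mild drought, severe drought and between them. Of all lncRNA transcripts tested, 3.2%, 4.75% and 3.63% were under that p-value. The highest of the 18 was SORBI_3004G113800-AS1 of the abscisic acid receptor PYL3, with 5.77, 12.5 and 7.49 CPM in control leaves, 6.58, 4.41 and 9.36 in mild and 4.92, 8.85 and 10.9 in severe drought. These overlapped throughout, as did the remainder of the gene (145 to 260 CPM).

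The 2 at an unadjusted p under 0.05 in severe drought lay in genes of water transport and drying. SORBI_3002G125000-AS1, of the aquaporin PIP2-6, a water channel of the plasma membrane, had 0.9, 1.42 and 0.418 CPM in control leaves, 0.378, 0.162 and 0.2 in mild and 0.0679, 0.233 and 0 in severe drought. Both drought groups lay below the control, and the severe drought difference was -3.14 ± 1.08 on the log2 scale (adjusted p of 0.967 in edgeR). The remainder of that gene was also lower, with 24.4, 11.6 and 8.4 CPM in the control and 7.1, 6.42 and 2.36 in severe drought. SORBI_3007G109800-AS1, of late embryogenesis abundant protein 31, which belongs to proteins that protect drying cells, had 3 counts in the control, 15 in mild and 37 in severe drought. Its gene had 0.794, 0.203 and 1.17 CPM in the control and 2.62, 5.03 and 2.96 in severe drought, without overlap.

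In a gene for dehydration-responsive element-binding protein 1A, which switches on stress genes, SORBI_3005G077532-AS1 had 1.56 to 6.05 CPM except in severe drought 1, where neither the transcript nor its gene had a count. SORBI_3002G269300-AS1, in another such gene, had at most 1.01 CPM. SORBI_3009G200200-AS1 of a trehalose-phosphate synthase, SORBI_3009G178800-AS1 of ABSCISIC ACID-INSENSITIVE 5-like protein 2, SORBI_3001G406300-AS1 of a protein phosphatase 2C and SORBI_3001G022700-AS1 of an abscisic acid 8'-hydroxylase, which breaks the hormone down, had at most 2.23, 1.97, 0.849 and 0.591 CPM. All of these overlapped between severe drought and the control. At the genes for NCED3, which makes the precursor of abscisic acid, galactinol synthase and aquaporin NIP4-1, the AS transcripts did not pass the filter and had at most 0.559, 0.507 and 0.8 CPM.

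Other groups of genes were described in the same way. Protein kinases made up 5.25% of the AS genes and 3.65% of all genes, immune receptors 1.55% and 0.972%, and RNA processing factors 1.99% and 1.18%. Transcription factors (3.92% against 3.97%), protein turnover (3.42% against 3.19%) and transport (3.7% against 3.34%) were closer to their shares among all genes, and no test was made. No AS transcript and no gene of these lists passed in edgeR in any comparison. In severe drought 13 of 15 tested AS transcripts of translation genes, ribosomal proteins and elongation or initiation factors, had a fitted level above the control, with a median of 0.73 on the log2 scale. These include organelle-named members. For protein turnover it was 27 of 38 (median 0.39), and for kinases 25 of 50 (median -0.05), beside 61.4% of all AS transcripts tested.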

How the data were processed

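Leaves were sequenced in 9 libraries, 3 in each of 3 groups, and every library was assigned by its label. Counts per gene and per lncRNA transcript, and FPKM for both, were deposited by the authors, per the file headers. The submitters' processing notes list StringTie 1.3.3b, STAR and HISAT2 2.0.4 without their roles, and the genome build was not given in the sources used here. Counts of lncRNA transcripts were contained in those of their genes (0 values exceeded them) and were subtracted. Deposited FPKM served only for lengths, for class medians and for the check of gene rows.

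CPM are counts scaled to the effective library size (total of mRNA genes times TMM factor, 0.807 to 1.12). Transcripts and genes went into a quasi-likelihood fit in edgeR 4.0.16 (R 4.3.3) with all 9 libraries in 1 fit after filterByExpr, and SE is the log2 difference divided by the square root of F. The log2 ratio of transcript to gene (pseudocount 1) was tested with limma 3.58.1. P-values were adjusted by Benjamini-Hochberg over all features of the table, and called at 0.05. DESeq2 1.42.0 was an alternative. Single values per library were compared by exact permutation (scipy 1.17.1). The steps were tested on simulated data.

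Named AS transcripts are, in each comparison, the 6 with the smallest p of the level and of the ratio (none being called), the 8 highest, water stress genes that passed the filter, and the 5 of largest share among genes that kept at least 5 CPM. Others, the organelle-named ones and those singled out by DESeq2 among them, were chosen after their values were seen. The members and lists were chosen with earlier results of these data known. The comparisons share libraries. Intervals cover counting error only. Floors (3 counts) stand for a group without a count, and counts were summed over the libraries of each group. They cover neither the counting error of the other group nor the spread between libraries.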

Additional observations from a re-analysis of the deposited data

How the results depend on the processing

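The counts of AS transcripts called, 0 in each comparison in edgeR, became 2, 7 and 3 (mild drought, severe drought and severe against mild) with DESeq2 and 3, 5 and 3 with no filter on low counts (0.148%, 0.247% and 0.148%, against 0.168%, 0.302% and 0.243% of all 11927 lncRNA transcripts). The counts of genes called became 10, 16 and 7 with DESeq2. For the ratio, severe against mild drought gave 1 with only those 2 groups in the fit (0.13%, against 0.166% of all pairs). Leaving out 1 library gave 0 to 1 AS transcripts in severe drought and between the drought levels. The 1 came without severe drought 1 (0.0772%, against 0.0688% and 0.103% of all lncRNA transcripts). For the ratio it gave 0 to 2 in both. There was 1 without control 2 or severe drought 3 (0.0941% and 0.0905%, against 0.127% to 0.207% of all pairs). Without severe drought 1 there were 2 (0.174%, against 0.243% and 0.283%). The rest gave 0. The causes were not tested. With 1 library left out, more AS transcripts were tested (1218 to 1296). Those at an unadjusted p under 0.05 numbered 22 (1.71%, against 2.24% of all lncRNA transcripts) to 63 (5.17%, against 4.32%) in mild drought. In severe drought there were 30 without control 1 (2.33%, against 2.89%) to 111 without control 2 (9.11%, against 6.02%). Between the drought levels there were 34 to 54 (at most 4.17%, against 4.23%). For genes these ranges were 49 to 111, 64 to 144 and 46 to 75, and for the ratio 25 to 56, 23 to 74 and 32 to 45. The highest counts of genes were 7.68%, 9.96% and 5.1%, against 7.69%, 10.2% and 4.53% of all genes. For the ratio they were 5.27%, 6.96% and 4.1%, against 5.36%, 6.21% and 5.52% of all pairs. In the fit with the replicate number as a block, 0 AS transcripts, 0 genes and 0 ratios were called. Deviations of same-numbered libraries correlated at -0.14 to 0.11 and those of others at -0.16 to 0.15. With 3 libraries in each group, such overlapping ranges cannot show whether same-numbered libraries share more than a number.

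Class values of mild against control changed sign. Without organelle names and the highest transcript, an alternative chosen after seeing the data, the share in AS plus gene differed by -0.425 points and the summed level by -195 CPM. Over all members, with 1 library left out, the share ranged from -0.371 to 1.13 points and the summed level from -50 to 1082 CPM. The number detected ranged from -59 to 164. In severe drought the ranges were 2.62 to 4.04 points, 2553 to 3685 CPM and -224 to -0.667 transcripts. The share of lncRNA counts ranged from 0.76 to 4.69 points in mild and from 0.352 to 4.52 in severe drought.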
